A study of Mus musculus with 16 samples.

Results

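The Slc4 and Slc26 families encode the transporters that carry bicarbonate, chloride and related anions across cell membranes, and 10 of their genes were examined in kidneys that had lost Hes1. They were taken by name from a table of read counts for whole mouse kidney: Slc26a4, Slc4a9 and Slc4a8 as exchangers of type B intercalated cells, Slc4a1 and Slc26a7 of type A intercalated cells, Slc26a11 of intercalated cells in general, Slc4a2 and Slc4a7 of several segments, and Slc4a4 and Slc26a1 of the proximal tubule. They are 10 of the 21 genes of both families, all 10 were among the 28971 genes of the table, and all 10 were among the 15615 genes with enough counts to be tested. The mutant animals, called Hes1 cKO (conditional knockout), carried Pax8-rtTA, TRE->Cre and Hes1 f/f, and the controls were littermates labelled as wild type. Hes1 is a transcriptional repressor switched on by Notch signalling, and the study asked which kidney genes depend on it. Every animal, controls included, drank doxycycline at 1 mg/mL in 5% sucrose for 1 week from 3 weeks of age. Doxycycline lets the Pax8-driven rtTA switch on Cre, so that deletion is limited to the Pax8 lineage, which is the tubule epithelium, while whole-kidney RNA also holds vessels, stroma and blood. Whether rtTA or Cre was present in the controls is not stated in the sources used here. The 7 libraries used were 3 of Hes1 cKO and 4 of control, and their numbers only name columns of the table. Values per library are listed in the order Hes1 cKO 1 to 3 and control 1 to 4. The labels do not say that RNA of several animals was pooled, and p-values measure only the spread between these libraries.

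The collecting duct corrects the acid and base content of urine through 2 kinds of intercalated cell. Type A cells secrete protons at the apical side and return bicarbonate to the blood through the basolateral exchanger AE1, the product of Slc4a1, while type B cells secrete bicarbonate into the urine through the apical exchanger pendrin, the product of Slc26a4. Most filtered bicarbonate is reclaimed upstream in the proximal tubule, where the cotransporter NBCe1, the product of Slc4a4, moves it across the basolateral membrane.

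The groups were first checked on the targeted gene. Hes1 was at 19.8, 17.2 and 17.5 CPM (counts-per-million, with library totals scaled by TMM) in the Hes1 cKO libraries and at 42.8 to 67.6 CPM in the 4 controls, without overlap. Libraries held 16973931 to 20420422 counts. The female transcript Xist reached 342 CPM in Hes1 cKO 3 and 333 and 367 CPM in control 3 and 4, with at most 0.371 CPM elsewhere. Proximal tubule genes were abundant in every library, with a summed level of 10 genes of 12609 to 14200 CPM in Hes1 cKO and 13018 to 15777 CPM in control. For 6 thick ascending limb genes the sums were 4974 to 5533 CPM and 4900 to 6286 CPM. Of these 6 genes 5 had a negative log2 fold change, 4 of them at an unadjusted p under 0.05 and 2 below every control, with a median of -0.29 and edgeR adjusted p-values from 0.531 to 0.974. Among all tested genes, 5.95% passed an unadjusted p under 0.05 in either direction, and 3.29% lay below every control.

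The 250 bases before the start of transcription are shown for Slc26a4 and Slc4a8, 2 exchangers of the same cell type. Of these, Slc26a4 was higher in Hes1 cKO at an adjusted p under 0.05 in edgeR and Slc4a8 was not, as given below. The difference between their changes was not tested. The sequences were read from RefSeq promoter windows on the GRCm38.p6 build, in which 6 of the 10 genes had an entry. Slc4a9, the other gene called, had none. The Slc26a4 window lies at chr12:31559985-31560234 on the minus strand and the Slc4a8 window at chr15:100761497-100761746 on the plus strand, both printed 5′ to 3′ in the sense of the gene. Capitals mark matches, on either strand, to the forkhead motif GTAAACA, the Hes class C motif CACGNG, the N-box CACNAG or the letters TATAAA, the last chosen after the sequences were seen.
Slc26a4: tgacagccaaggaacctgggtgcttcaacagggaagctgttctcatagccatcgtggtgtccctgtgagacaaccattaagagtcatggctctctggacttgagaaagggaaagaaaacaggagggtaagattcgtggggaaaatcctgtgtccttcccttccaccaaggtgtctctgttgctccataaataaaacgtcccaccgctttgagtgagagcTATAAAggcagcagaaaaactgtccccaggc
Slc4a8: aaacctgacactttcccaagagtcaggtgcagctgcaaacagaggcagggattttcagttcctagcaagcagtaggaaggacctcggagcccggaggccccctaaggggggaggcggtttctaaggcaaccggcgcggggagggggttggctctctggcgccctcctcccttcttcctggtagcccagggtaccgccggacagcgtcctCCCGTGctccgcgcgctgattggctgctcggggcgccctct
The Slc26a4 window held TATAAA, with its first base 31 bases before the start, and no match to the other 3 motifs. The Slc4a8 window held 1 match to CACGNG, read on the opposite strand, whose leftmost base lies 41 bases before the start, and none to the others. Among all 32851 windows of that length, 12.4% held TATAAA, 23.5% held CACGNG, 36.7% held CACNAG and 3.17% held GTAAACA. The Slc26a4 window was 49.6% G and C and the Slc4a8 window 64.8%, beside a median of 52.4% over all windows.

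Of the 10 exchanger genes, 2 were higher in Hes1 cKO, Slc26a4 and Slc4a9, and none was lower, at an adjusted p under 0.05 in edgeR (quasi-likelihood, Benjamini-Hochberg over all tested genes). Over all tested genes 0.339% were called in either direction, 0.32% as higher and 0.0192% as lower. At an unadjusted p under 0.05 there were 4 higher members and 0 lower ones, where 5.95% of all genes passed in either direction, and DESeq2 and limma-voom also called 0 members as lower. The median log2 fold change of the 10 was 0.01, beside -0.01 over all tested genes. In bulk RNA, fewer or more cells of a type and less or more RNA per cell cannot be told apart.

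**Figure D1:**
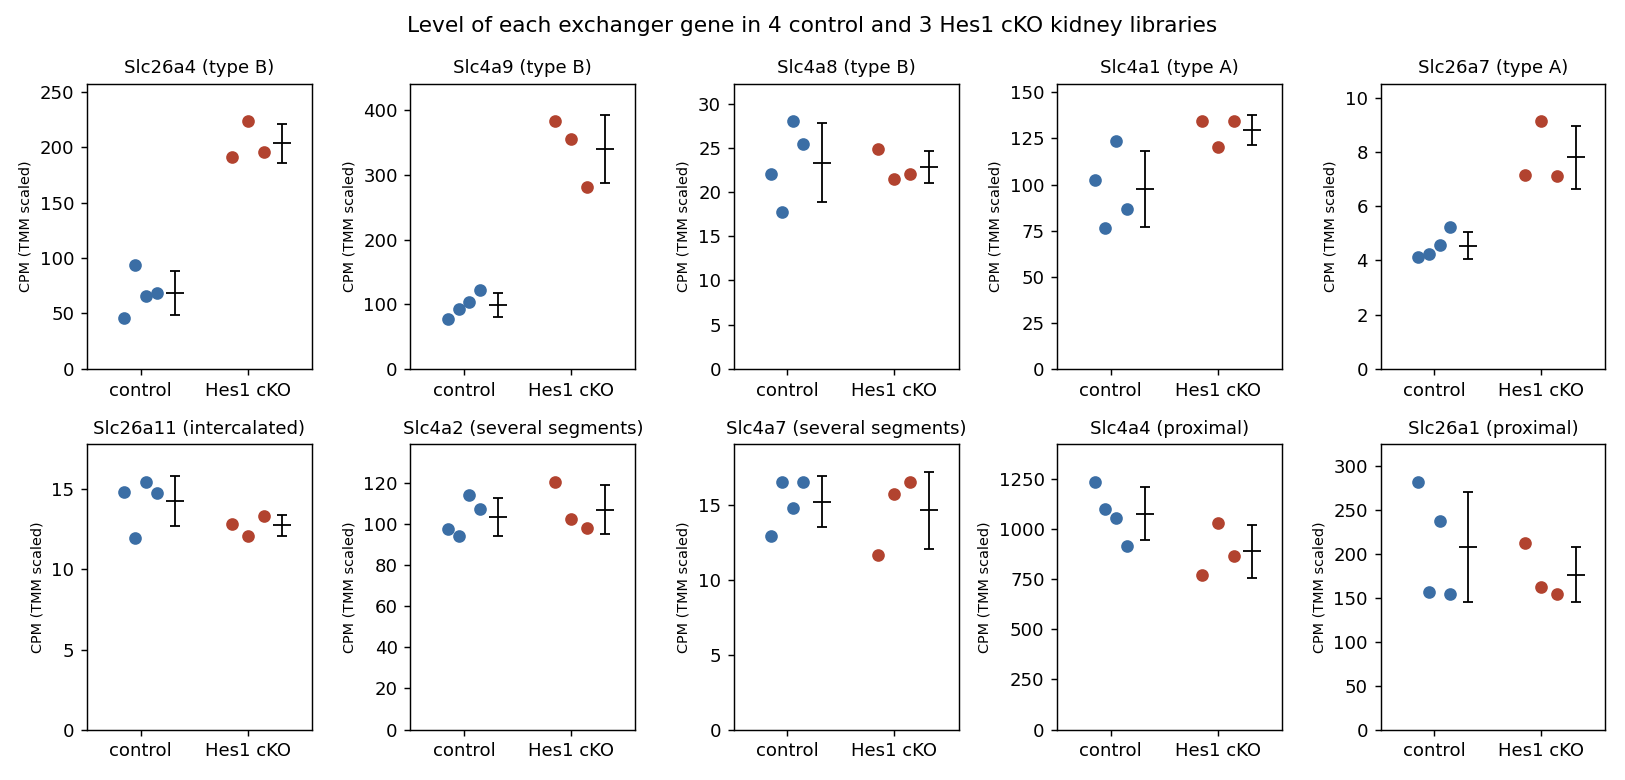
Level of each of the 10 genes in CPM (vertical axis from 0) in the 4 control (blue) and 3 Hes1 cKO (red) libraries, with mean and SD beside the points. Slc26a4, Slc4a9 and Slc26a7 have every Hes1 cKO library above every control library, and the other 7 overlap.

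Slc26a4 encodes pendrin, the apical chloride and bicarbonate exchanger of type B cells. Its gene (ENSMUSG00000020651) lies at chr12:31519827-31559969 on the minus strand (GRCm38). It was at 192, 224 and 195 CPM in the Hes1 cKO libraries and at 45.5, 93.4, 66.0 and 68.7 CPM in the controls. The lowest Hes1 cKO library lay 2.05-fold above the highest control. The means were 204 ± 17.6 CPM (SD, n = 3) and 68.4 ± 19.6 CPM (SD, n = 4), and among the controls control 1 was low and control 2 high. On the log2 scale the change was 1.57 (edgeR adjusted p 0.0104, SE 0.20), about 2.97-fold, and its 95% interval ran from 1.13 to 2.02. The call was lost without Hes1 cKO 2, the highest library (edgeR adjusted p 0.0693), and was narrow without Hes1 cKO 1 (edgeR adjusted p 0.0490).

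Slc4a9 encodes AE4, a basolateral transporter of type B cells. Its gene (ENSMUSG00000024485) lies on chromosome 18 from 36528147 to 36556273 on the plus strand (GRCm38). It was at 384, 356 and 281 CPM in the Hes1 cKO libraries and at 77.2, 92.4, 104 and 122 CPM in the controls. All Hes1 cKO libraries were high, the lowest of them 2.30-fold above the highest control, with means of 340.2 ± 53.2 CPM (SD, n = 3) and 98.9 ± 18.9 CPM (SD, n = 4). The fitted change (log2) was 1.78 (edgeR adjusted p 0.00283, SE 0.16), with a 95% interval from 1.42 to 2.14. No single library decided the call, since the edgeR adjusted p reached at most 0.0209 when each was omitted in turn.

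Slc4a8 encodes NDCBE, a sodium-driven chloride and bicarbonate exchanger that works beside pendrin in salt uptake by type B cells. Its gene (ENSMUSG00000023032) lies at chr15:100761747-100823968 on the plus strand (GRCm38). It was at 24.9, 21.5 and 22.0 CPM in the Hes1 cKO libraries and at 22.1, 17.7, 28.0 and 25.4 CPM in the controls. The Hes1 cKO values lay inside the range of the controls, and the means were 22.8 ± 1.81 CPM (SD, n = 3) and 23.3 ± 4.47 CPM (SD, n = 4). The estimate was a log2 fold change of -0.03 (edgeR adjusted p 0.996, SE 0.15), with a 95% interval from -0.38 to 0.31 that lies below those of Slc26a4 and Slc4a9. The direction was not stable, turning positive with Xist as a covariate (0.023). The difference between Slc4a8 and the other 2 type B genes was not tested itself.

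The other type B genes listed were Insrr, a receptor kinase gene, Hmx2, a transcription factor gene, and Sctr, the secretin receptor gene. Insrr and Hmx2 were called as higher, with log2 fold changes of 1.79 and 2.44 (edgeR adjusted p 0.000634 for both). Among all tested genes, 0.32% were called as higher. Sctr went the other way, at 0.396 to 0.899 CPM in Hes1 cKO and 1.26 to 1.61 CPM in control, without overlap. Its log2 fold change was -1.08, and it was not called (edgeR adjusted p 0.582, unadjusted 0.00901). The summed level of the 3, nearly all from Insrr and Hmx2, was 225 to 244 CPM in Hes1 cKO and 49.6 to 71.6 CPM in control. The genes outside the 10 whose profile over the 7 libraries was closest to that of Slc26a4 were Atp6v0d2, a proton pump subunit gene, Foxi1, a forkhead transcription factor gene of intercalated cells, and Insrr. Closeness was measured as the root mean square difference of log2(CPM + 1) after each gene was centred on its own mean, and it was 0.209, 0.209 and 0.210 for these genes, against 0.296 for Slc4a9 and 0.894 for Slc4a8.

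Slc4a1 encodes AE1, the basolateral exchanger of type A cells, and is also a major membrane protein gene of red blood cells. The gene (ENSMUSG00000006574) lies at chr11:102348824-102366203 on the minus strand (GRCm38). It was at 134, 120.4 and 135 CPM in the Hes1 cKO libraries and at 103, 76.6, 124 and 86.6 CPM in the controls. The groups overlapped at Hes1 cKO 2 and control 3, with means of 129.8 ± 8.16 CPM (SD, n = 3) and 97.4 ± 20.6 CPM (SD, n = 4). The log2 fold change was 0.41 (SE 0.15, 95% interval 0.08 to 0.75), not called (edgeR adjusted p 0.718, unadjusted 0.0215). The exact permutation test over all 35 assignments of the group labels gave p = 0.0857 (two-sided), where the smallest p possible was 0.0286.

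Red cell genes were read beside Slc4a1 because whole kidneys hold blood. The summed level of 8 erythroid genes was 435, 625 and 330 CPM in the Hes1 cKO libraries, against 597, 1571, 727 and 317 CPM in the controls. The sum was nearly all globin, with Hba-a1 at 181 to 896 CPM and Hbb-bs at 119 to 601 CPM over the 7 libraries. Hba-a2 and Epb42, a red cell membrane skeleton gene, were each under 1 CPM in every library. Hba-a2 is a near-identical copy of Hba-a1, so how reads were split between them is uncertain. Of the 8 genes 4 were tested, all lower on average in Hes1 cKO (median log2 fold change -0.79), with edgeR adjusted p-values of at least 0.882. Control 2, with the highest erythroid sum, had the lowest Slc4a1 level. With the erythroid score as a covariate the log2 fold change of Slc4a1 was 0.37 (edgeR adjusted p 0.950). How much of the Slc4a1 count came from red cells was not tested.

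**Figure D2:**
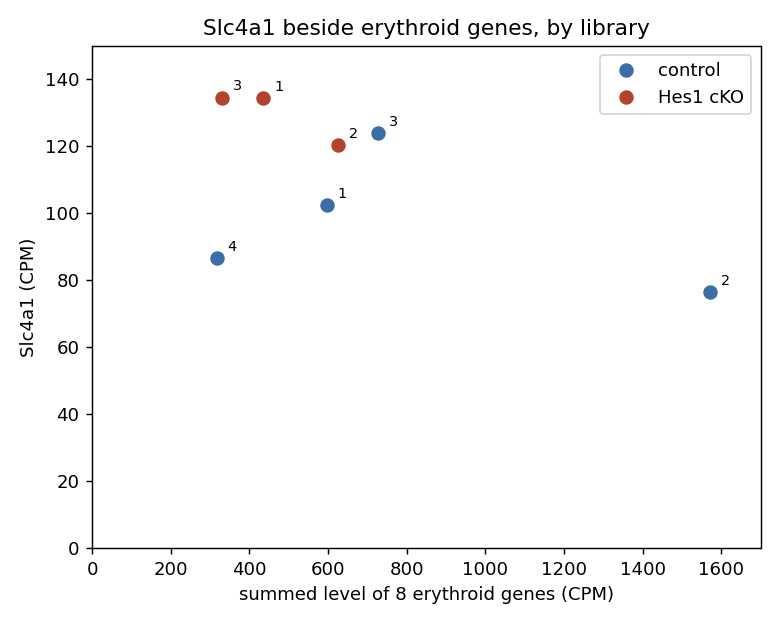
Slc4a1 level (vertical axis, CPM) against the summed level of 8 erythroid genes (horizontal axis, CPM) in each library, numbered by library, control in blue and Hes1 cKO in red. Control 2 lies far to the right at 1571 CPM of erythroid genes with the lowest Slc4a1, 76.6 CPM.

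Slc26a7 encodes a chloride and bicarbonate exchanger of type A cells in the outer medulla and was the least abundant member per exon length in control. The gene (ENSMUSG00000040569) lies at chr4:14502430-14621805 on the minus strand (GRCm38). It was at 7.14, 9.15 and 7.12 CPM in the Hes1 cKO libraries and at 4.13, 4.24, 4.56 and 5.24 CPM in the controls. Every Hes1 cKO library was above every control library, by 1.36-fold at the closest pair, and the means were 7.80 ± 1.17 CPM (SD, n = 3) and 4.54 ± 0.5003 CPM (SD, n = 4). Counted with Slc26a4 and Slc4a9, 3 of the 10 members lay above the controls without overlap and 0 below, where 3.71% of all tested genes lay above and 3.29% below, or 7.01% in either direction. On the log2 scale the change was 0.78 (SE 0.17, 95% interval 0.41 to 1.16). It was not called by edgeR (adjusted p 0.184) and was called by DESeq2's Wald test (adjusted p 0.0227).

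The 5 other type A genes listed had a summed level of 570.1 to 605 CPM in Hes1 cKO and 407 to 496 CPM in control. Slc12a7 (205 to 264 CPM over the 7 libraries) and Adgrf5 (117 to 173 CPM) made up the largest part of this sum. Which kidney cells the counts of these genes came from was not tested. Of the 5 genes 1 was called, Kit, a receptor kinase gene, with a log2 fold change of 1.08 (edgeR adjusted p 0.0206, SE 0.15). All 5 had positive log2 fold changes (median 0.51), 4 of them at an unadjusted p under 0.05 and 3 above every control. Among all tested genes, 0.32% were called as higher and 3.71% lay above every control. An unadjusted p under 0.05 was reached by 5.95% of all tested genes in either direction. Aqp6, an intracellular water channel gene of type A cells, was at 112 to 131 CPM in Hes1 cKO and 61.7 to 89.1 CPM in control, a log2 fold change of 0.69 that was not called (edgeR adjusted p 0.0734). Adgrf5, an adhesion receptor gene, had a log2 fold change of 0.35 (edgeR adjusted p 0.327, unadjusted 0.00261). For Dmrt2, a transcription factor gene, it was 0.51 (edgeR adjusted p 0.783, unadjusted 0.0357). For Slc12a7, a potassium and chloride cotransporter gene, it was 0.06 (edgeR adjusted p 0.984). The profiles closest to Slc4a1 outside the members were those of Syn2 (root mean square difference 0.097), a synapsin gene, St14 (0.118), which encodes the protease matriptase, and Cdc42ep4 (0.119), a Cdc42 effector gene, with edgeR adjusted p-values from 0.512 to 0.922.

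Slc26a11, an anion transporter gene of intercalated cells, was at 12.8, 12.1 and 13.4 CPM in the Hes1 cKO libraries and at 14.8, 11.97, 15.5 and 14.7 CPM in the controls. The groups overlapped through control 2 alone, the lowest library of all. The fitted change (log2) was -0.16 (edgeR adjusted p 0.942, SE 0.12), with a 95% interval from -0.43 to 0.11.

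The genes listed for intercalated cells without a type (Foxi1, Hepacam2, Car2 and 4 proton pump subunit genes) summed to 1318 to 1492 CPM in Hes1 cKO and 1099 to 1178 CPM in control. Of these 7 genes 4 were called as higher, with a median log2 fold change of 0.88. Car2, a cytosolic carbonic anhydrase gene, was at 349.7, 382 and 469 CPM in the Hes1 cKO libraries and at 435 to 467 CPM in the 4 controls. Together with the proton pump subunit gene Atp6v0a4 it made up the largest part of the sum of the list. Which kidney cells the Car2 counts came from was not tested. Car2 overlapped between the groups, and its log2 fold change was -0.17 (edgeR adjusted p 0.938, SE 0.11). Principal cell genes, the other main cell of the duct, summed to 759 to 1212 CPM in Hes1 cKO and 1241 to 1888 CPM in control. All 7 tested principal cell genes had negative log2 fold changes (median -0.53), 5 of them at an unadjusted p under 0.05 and 3 below every control. Of the 7, 1 was called by edgeR as lower, Hsd11b2, which encodes a glucocorticoid-inactivating enzyme. Among all tested genes, 0.32% were called as higher and 0.0192% as lower. An unadjusted p under 0.05 was reached by 5.95% of all tested genes, and 3.29% lay below every control. The part of these lists in the levels of the exchangers was not tested.

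Slc4a2 and Slc4a7 are expressed in several segments, Slc4a2 as the basolateral exchanger AE2 and Slc4a7 as the sodium bicarbonate cotransporter NBCn1 of the thick ascending limb. Slc4a2 was at 120.5, 102 and 97.7 CPM in the Hes1 cKO libraries and at 97.3, 94.0, 114 and 107 CPM in the controls. The highest library was Hes1 cKO 1, and the other libraries of both groups were mixed. The estimate was a log2 fold change of 0.05 (SE 0.10, 95% interval -0.18 to 0.29). Of the exon length of Slc4a2, 13.7% is shared with Fastk on the opposite strand, and whether reads were counted by strand is unknown, so part of its count can come from that gene. Slc4a7 was at 11.7, 15.7 and 16.5 CPM in the Hes1 cKO libraries and at 13.0, 16.6, 14.8 and 16.5 CPM in the controls. The Hes1 cKO libraries held both the lowest value and values near the highest. The log2 fold change was -0.06 (SE 0.15, 95% interval -0.39 to 0.28), and neither gene was called (edgeR adjusted p 0.988 and 0.992).

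Slc4a4, the proximal tubule cotransporter gene, was the most abundant member. The gene (ENSMUSG00000060961) lies at chr5:88886818-89239653 on the plus strand (GRCm38). It was at 772, 1031 and 864 CPM in the Hes1 cKO libraries and at 1236, 1097, 1057 and 913 CPM in the controls. The groups overlapped at Hes1 cKO 2 and control 4, and 2 of the 3 Hes1 cKO libraries were below every control. The means were 889 ± 131 CPM (SD, n = 3) and 1076 ± 133 CPM (SD, n = 4). On the log2 scale the change was -0.28 (edgeR adjusted p 0.877, SE 0.13), with a 95% interval from -0.57 to 0.02. Slc26a1 encodes the basolateral sulfate and anion exchanger SAT1 of the proximal tubule. It was at 212, 162 and 154 CPM in the Hes1 cKO libraries and at 282, 157, 237 and 154 CPM in the controls. Its controls fell into a high and a low pair, and all Hes1 cKO values lay within the range of the controls. The fitted change (log2) was -0.24 (edgeR adjusted p 0.962, SE 0.22, 95% interval -0.73 to 0.26). Idua, on the opposite strand, shares 3.48% of the exon length of Slc26a1.

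The 10 other proximal tubule genes had edgeR adjusted p-values from 0.885 to 0.987 and a median log2 fold change of -0.15. Lrp2, which encodes the endocytic receptor megalin, was at 1568 to 1823 CPM in Hes1 cKO and 1775 to 2099 CPM in control, with a log2 fold change of -0.21. The profiles closest to Slc4a4 outside the members were those of Itga10 (root mean square difference 0.071), an integrin chain gene, Ppp3cc (0.074), a calcineurin subunit gene, and Hist2h3c2 (0.076), a histone gene, with edgeR adjusted p-values from 0.938 to 0.962. Itga10 and Hist2h3c2 were low, at means of 1.35 and 1.12 CPM in Hes1 cKO and 1.75 and 1.45 CPM in control. At such levels log2(CPM + 1) shrinks a change, so their closeness to Slc4a4 can depend on the pseudocount.

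**Figure D3:**
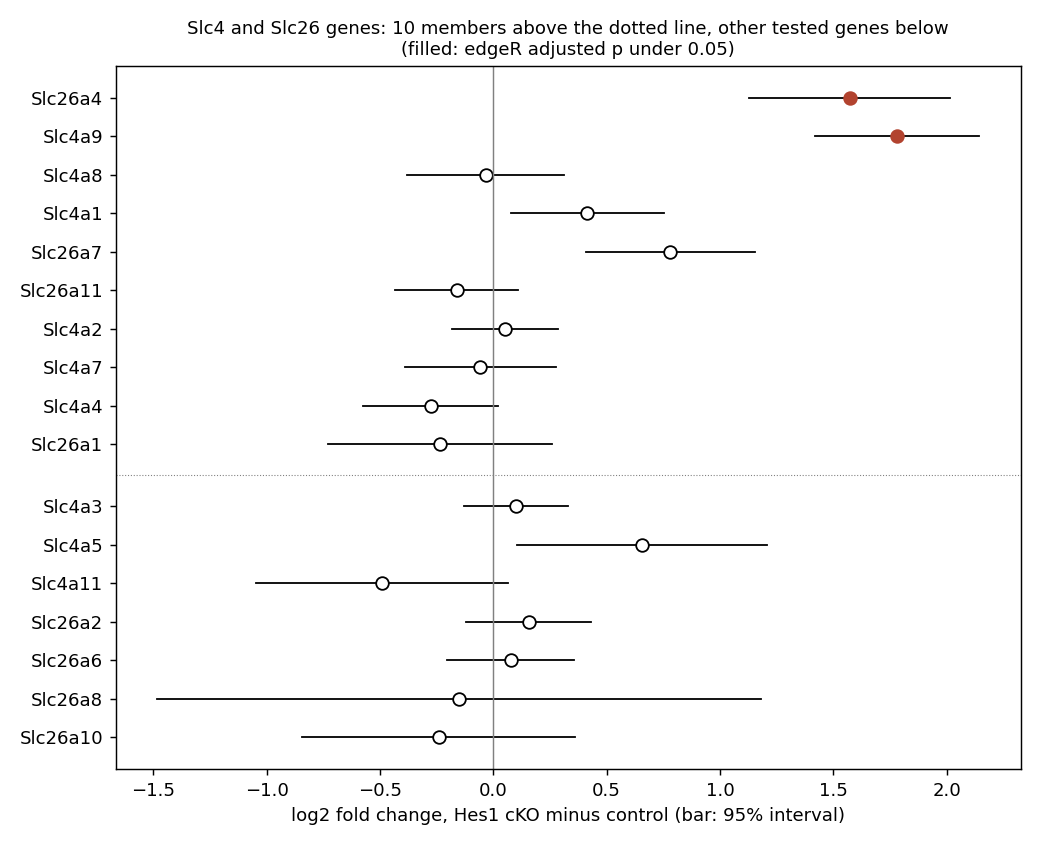
Log2 fold change of Hes1 cKO against control (horizontal axis) with its 95% interval for the 10 members and, under the dotted line, the 7 other tested genes of the families. Filled points are called by edgeR, and only Slc26a4 (1.57) and Slc4a9 (1.78) are filled.

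Whether the exchangers of type B, type A and proximal cells differed in their change was tested on the ratio of 2 genes within each library, in which the scaling of the library very nearly cancels. Each value is a difference of log2(CPM + 1), tested by the exact two-sided permutation test over 35 assignments with adjustment over 8 ratios. Slc4a9 rose more than both type A genes. The log2 ratio of Slc4a9 to Slc4a1 was 1.51, 1.56 and 1.06 in the Hes1 cKO libraries, against -0.41, 0.27, -0.25 and 0.49 in the controls. The means were 1.37 ± 0.28 (SD, n = 3) and 0.03 ± 0.42 (SD, n = 4), a difference of 1.35 (exact permutation p = 0.0286, the smallest possible, adjusted p 0.0457). The ratio of Slc4a9 to Slc26a7 differed by 1.12, with the same p-values, from 5.12 to 5.56 in Hes1 cKO and from 3.93 to 4.30 in control. Slc26a7 was at 4.13 to 9.15 CPM, where log2(CPM + 1) shrinks a change, so the size of ratios with it depends on the pseudocount.

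For Slc26a4 against the type A genes the difference did not pass. The log2 ratio of Slc26a4 to Slc4a1 was 0.51, 0.89 and 0.53 in the Hes1 cKO libraries, against -1.15, 0.28, -0.90 and -0.33 in the controls. The groups did not overlap, and the controls spread over more than the gap between the means. The difference of the means was 1.17 (exact permutation p = 0.0571, adjusted p 0.0653). The ratio of Slc26a4 to Slc26a7 differed by 0.94 (exact permutation p = 0.0571, adjusted p 0.0653), again with control 2 as the highest control, at 4.17 beside 3.18 to 3.59 in the others.

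Against the proximal gene Slc4a4, both called type B genes differed in their change. The log2 ratio to Slc4a4 rose by 1.88 for Slc26a4, from -3.99 ± 0.53 (SD, n = 4) to -2.11 ± 0.10 (SD, n = 3), and the exact permutation p was 0.0286 (adjusted 0.0457). For Slc4a9 it rose by 2.06, from -3.44 ± 0.45 to -1.38 ± 0.33, with the same p-values. Of the type A genes, Slc26a7 rose against Slc4a4 by 0.94 (exact permutation p = 0.0286, adjusted 0.0457). The ratio of Slc4a1 to Slc4a4 differed by 0.71 and did not pass (exact permutation p = 0.0857, adjusted 0.0857).

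**Figure D4:**
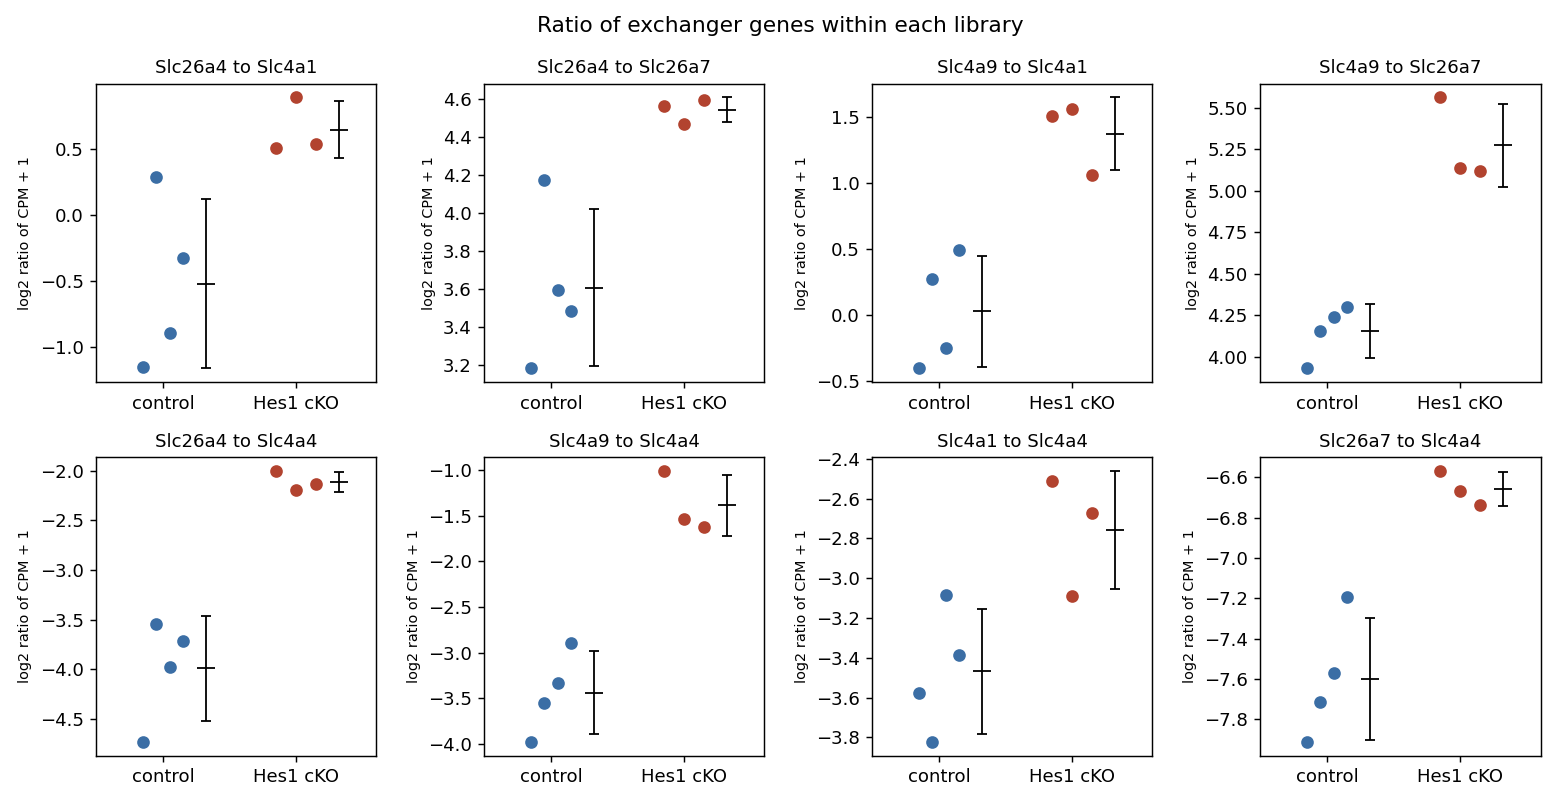
The 8 log2 ratios of CPM + 1 between exchanger genes in each library (vertical axes, which do not start at 0), with mean and SD beside the points. The ratios with Slc4a9 or Slc26a4 as the first gene are higher in each Hes1 cKO library than in every control, with the widest spread of controls for Slc26a4 to Slc4a1 (-1.15 to 0.28).

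To compare levels between genes, CPM was divided by the length of all annotated exons of a gene in kilobases, which ignores which isoform is used. In control the order per length was Slc4a4 (99.5 CPM per kb), Slc26a1 (51.2), Slc26a4 (22.0), Slc4a1 (19.9), Slc4a9 (15.4), Slc4a2 (12.4), Slc26a11 (3.95), Slc4a8 (1.79), Slc4a7 (1.00) and Slc26a7 (0.836). Among the controls, the ranges of Slc26a4 and Slc4a1, of Slc4a1 and Slc4a9, of Slc4a9 and Slc4a2, and of Slc4a7 and Slc26a7 overlapped. Within each control library, Slc4a9 was above Slc4a2 and Slc4a7 above Slc26a7, while the order of the other overlapping pairs changed between libraries. These orders were not tested. In Hes1 cKO, Slc26a4 (65.5 CPM per kb) came to second place after Slc4a4 (82.2), with overlapping ranges, followed by Slc4a9 (53.1) and Slc26a1 (43.5), which also overlapped. Within each Hes1 cKO library, Slc4a4 was above Slc26a4 and Slc4a9 above Slc26a1. Slc4a1 followed at 26.5 CPM per kb, and the rest of the order was as in control except that Slc26a7 (1.44) stood above Slc4a7 (0.963).

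The make-up of the 10 transcripts per length is given as a description, with no test. Slc26a4 made up 20.9%, 23.4% and 23.1% of the sum in the Hes1 cKO libraries, against 5.85%, 13.8%, 8.81% and 10.9% in the controls. Slc4a9 made up 16.1% to 20.3% in Hes1 cKO and 4.81% to 9.42% in control. The share of Slc4a1 was 8.00% to 10.1% and 7.18% to 10.5%, and that of Slc4a4 was 24.2% to 31.0% and 40.5% to 46.5%. The sum itself was 295, 308 and 272 CPM per kb in the Hes1 cKO libraries, against 251, 218, 241 and 202 CPM per kb in the controls. Shares of a single sum are not independent of each other. Per length, Slc26a4 stood at 1.03, 1.29 and 1.43 times Slc4a9 in the Hes1 cKO libraries and at 1.22, 2.08, 1.31 and 1.16 times in the controls, which overlap.

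**Figure D5:**
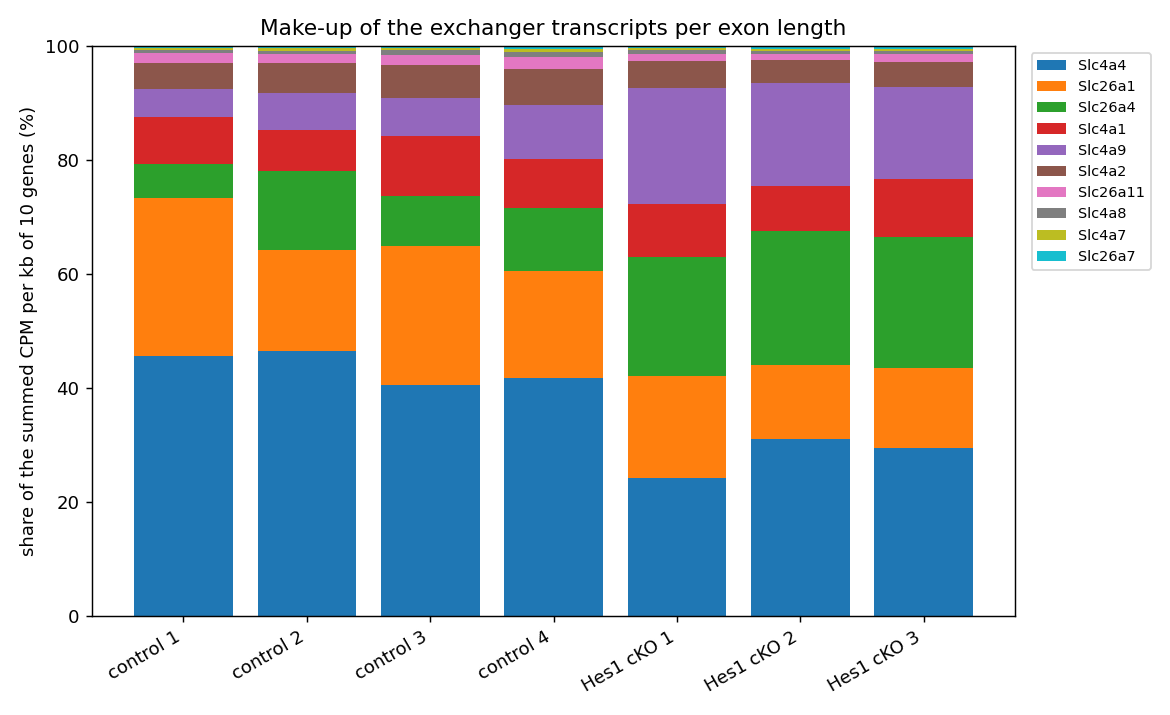
Share of each member in the summed CPM per kb of the 10 genes (vertical axis, percent), 1 bar for each library, with colours ordered by mean level in control. Slc26a4 and Slc4a9 take 16.1% to 23.4% each in the Hes1 cKO bars and 4.81% to 13.8% each in the control bars.

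The families hold 11 further genes, of which 10 were in the table and 7 were tested. None of the 7 was called by edgeR, DESeq2 or limma-voom, and their median log2 fold change was 0.08. At an unadjusted edgeR p under 0.05 there was 1, where 5.95% of all tested genes passed. That gene was Slc4a5, a sodium bicarbonate cotransporter gene, at 5.34, 3.86 and 4.35 CPM in the Hes1 cKO libraries and at 3.04, 1.85, 3.51 and 3.06 CPM in the controls. Its libraries did not overlap, narrowly (1.10-fold), and its log2 fold change was 0.66 (edgeR adjusted p 0.731, SE 0.25). Slc4a11 had the largest difference downward, with a log2 fold change of -0.49 (edgeR adjusted p 0.905, SE 0.25) and overlapping groups. The log2 fold changes of the other 5, Slc4a3 (0.10), Slc26a2 (0.16), Slc26a6 (0.08), Slc26a8 (-0.15) and Slc26a10 (-0.24), had 95% intervals that include 0. Slc4a10, Slc26a3 and Slc26a9 stayed under 1 CPM in every library and were not tested.

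Of 27 genes that supply, drive or regulate these transporters (carbonic anhydrases, proton pumps, chloride channels, sodium and proton exchangers and their regulators), 6 were called as higher and 0 as lower by edgeR, and DESeq2 and limma-voom gave the same numbers. Among all tested genes, edgeR called 0.32% as higher and 0.0192% as lower. By unadjusted p under 0.05 there were 6 higher and 2 lower of the 27, beside 5.95% of all tested genes in either direction. The median log2 fold change of the 27 was -0.0004. The list shares Car2 and the pump subunits with the intercalated genes above, Slc12a7 with the type A genes and Sctr with the type B genes. The 6 were Car12, Atp12a and the proton pump subunit genes Atp6v1c2, Atp6v0d2, Atp6v1g3 and Atp6v1b1. Car12, a membrane carbonic anhydrase gene, was at 729, 727 and 706 CPM in the Hes1 cKO libraries and at 366, 437, 382 and 411 CPM in the controls. It was high in every Hes1 cKO library, with a log2 fold change of 0.85 (edgeR adjusted p 0.00357, SE 0.09). Atp12a, which encodes a potassium and proton ATPase, was at 4.18 to 7.47 CPM in Hes1 cKO and at only 0.439 to 1.38 CPM in control. It differed by 2.71 on the log2 scale (edgeR adjusted p 0.0167). The 4 subunit genes ranged from 0.73 (Atp6v1b1, edgeR adjusted p 0.0369) to 1.36 (Atp6v1c2, edgeR adjusted p 0.00316). The subunit gene Atp6v0a4 was at 419 to 532 CPM in Hes1 cKO and 394 to 452 CPM in control and was not called (edgeR adjusted p 0.934). Leaving out Hes1 cKO 1 or Hes1 cKO 2, or taking the erythroid score as a covariate, left 3 of the 27 called, in each case Car12, Atp6v1c2 and Atp6v1g3.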

How the data were processed

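Whole-kidney total RNA was sequenced as 150 bp pairs, and the authors deposited 2 tables of whole-number read counts per gene, not normalized, per the file headers and values. FastQC, STAR and DESeq2 and the builds mm10 and GRCm38 are named in the submitters' processing notes, with no role, while counting program, strand setting and annotation remain not given in the sources used here. Sample titles name 7 Hes1 cKO and 9 control kidneys, while the series text gives the sizes the other way round. One table marks 3 columns as mutants and 4 as wild types, which served as replicates without numbers or sex. The 9 columns of the other table show no genotype and were not used.

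From the counts, low genes were removed with filterByExpr (minimum count 10, edgeR 4.0.16 under R 4.3.3) and the rest scaled by TMM and compared by the quasi-likelihood test with no covariate, with Benjamini-Hochberg adjustment over 15615 genes and a call at an adjusted p under 0.05. Standard errors come from the F statistic, and 95% intervals from the fit's degrees of freedom. Ratios and single genes used log2(CPM + 1) in exact permutation tests over 35 label assignments. Gene models and exon lengths come from GENCODE release M21 (GRCm38). The fit was checked on simulated counts. Genes named are the 10 members, tested family genes, called partners with Car2 and Atp6v0a4, Hes1, the 3 closest profiles of 3 members, and a fixed set of markers, of which some are not reported here; other markers and Sctr were named after their values were seen. Members and lists were chosen with earlier results of these data known. Alternatives were DESeq2 (version 1.42.0), limma-voom (limma version 3.58.1), 2 scalings, 2 filters, 2 covariates (log2 Xist and the mean log2 level of erythroid genes), another pseudocount and leaving out each library.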

Additional observations from a re-analysis of the deposited data

Results flagged for a closer look

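Among the 4 controls, 2 proton pump subunit genes had a library far from the others. Atp6v1b1 was at 108 CPM in control 1 and at 146 to 147 CPM in the other 3. Its gap was 0.959 of the range over all controls, which exceeds Dixon's 95% critical value for 4 samples. Atp6v1g3 was at 39.9 CPM in control 1 and at 54.0 to 56.9 CPM in the others, with a ratio of 0.832. Chance puts a library this far out in about 1 in 20 groups, and 40 groups were tested. Control 1 also had the lowest Slc26a4 (45.5 CPM) and Slc4a9 (77.2 CPM) of all libraries. None of the 10 exchanger genes and none of their 8 ratios had such a library.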

How the results depend on the processing

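Slc4a9 kept its direction and its call in all 15 alternatives, and Slc26a4 in 14, the exception being the fit without Hes1 cKO 2. Slc26a4 passed narrowly without Hes1 cKO 1, control 3 or control 4 (edgeR adjusted p 0.0490, 0.0423 and 0.0428). Members called as higher numbered 1 to 2 when a library was left out, and members called as lower stayed at 0. Slc26a7 was called only by DESeq2's Wald test, at a log2 fold change of 0.78. Among genes not called, the direction of Slc4a8 turned with Xist as a covariate (0.023) and when a library was left out (-0.14 to 0.069), and leaving out Hes1 cKO 1 turned Slc4a2 (-0.045, in a range up to 0.11) and Slc4a7 (0.080, in a range from -0.15). The range of Slc26a4 over left-out libraries was 1.42 to 1.76. Calls over all genes were 53, and were 102 without a filter on low counts, 127 by DESeq2, 28 with the erythroid covariate and 25 to 47 when a library was left out. Partner genes called were 3 with the erythroid covariate and 3 to 6 with a library left out.

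The 5 ratios that passed could not pass once a library was left out, because the smallest two-sided p before adjustment is then 0.0667 without a Hes1 cKO library and 0.1 without a control. Their differences ranged from 1.20 to 1.51 (Slc4a9 to Slc4a1), 0.97 to 1.19 (Slc4a9 to Slc26a7), 1.63 to 2.03 (Slc26a4 to Slc4a4), 1.87 to 2.24 (Slc4a9 to Slc4a4) and 0.84 to 1.08 (Slc26a7 to Slc4a4). A pseudocount of 0.5 CPM changed no call among the 8 ratios. With it the differences were 1.07 for Slc4a9 to Slc26a7, 0.89 for Slc26a4 to Slc26a7 and 0.99 for Slc26a7 to Slc4a4. The causes of the changes between alternatives were not tested. No paired analysis was possible because the columns carry no replicate number of the labels. Among the 10 members, depth limits mainly Slc26a7, with 72 to 185 counts per library. Some other named genes were lower, among them Atp12a with 8 to 24 counts in the controls and Sctr with 8 to 28 over all libraries.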
